A study of Mus musculus with 12 samples.

Results

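The genes described here encode the integrins, the laminin chains, fibronectin and vitronectin, measured in mouse embryonic stem cells with and without the gene Nat1 in 2 culture media. They were taken by a rule on symbols: Itga or Itgb followed by a number or by x, m, l, d, e or v, Lama, Lamb or Lamc followed by a number, and Fn1 and Vtn. The rule itself uses no measured value, but it and the gene lists below were chosen with earlier results of these data known. The annotation held 40 such genes, of which 38 had a probe that could be named here (Itga10 and Itgae had none) and 30 entered the tests among 24456 genes in all. The other 8 with a probe (Itga2, Itga2b, Itgad, Itgax, Itgb2l, Itgb6, Itgb8 and Vtn) were not well above background on all arrays of any group. Itgb1bp1, Itgb1bp2, Itgb3bp and Itgbl1 begin with the same letters but are other genes and were left out.

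Total RNA was hybridised to 12 single-colour arrays, 3 for each of 4 groups: wild-type cells treated with LIF, wild-type cells with 2i+LIF, Nat1-null cells with LIF and Nat1-null cells with 2i+LIF. All groups are mouse embryonic stem cell lines kept on gelatin-coated plates in standard medium, and every group had LIF, a cytokine that holds these cells undifferentiated, so 2i+LIF differs from LIF by the added pair of inhibitors of the kinases MEK and GSK3. Nat1 was read as the earlier symbol of Eif4g2, which encodes DAP5, a translation factor related to eIF4G. The labels number the arrays within a group and do not say whether the numbers are separate cultures, clones or lines, nor how the Nat1-null cells were made, so the p-values below measure the spread between these samples, which may be technical.

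Integrins are cell surface receptors made of an alpha and a beta chain that tie the cytoskeleton to the matrix outside the cell, and the alpha chain largely decides which matrix protein is bound. Laminins are trimers of an alpha, a beta and a gamma chain and are the backbone of basement membranes, the first matrix that forms in the mouse embryo. Fibronectin and vitronectin are bound through an arginine-glycine-aspartate motif, written RGD. Embryonic stem cells are known to hold to laminin mainly through Itga6 paired with Itgb1, and to fibronectin through Itga5 paired with Itgb1.

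Upstream sequences are shown for 3 members that carry the main patterns: Itga5 and Itgb1, whose products form the fibronectin receptor and whose signals moved in opposite directions in the comparisons with wild-type cells in LIF, and Itga11, a collagen receptor chain among the members that fell furthest. Each is the stretch of 250 bases before the transcription start, 5′ to 3′ on the strand of the gene, from RefSeq on assembly GRCm38.p6, at chr15:103366792-103367041 on the minus strand for Itga5, chr8:128685404-128685653 on the plus strand for Itgb1 and chr9:62677605-62677854 on the plus strand for Itga11. Capitals mark GC boxes, GGGCGG or its reverse complement.
Itga5: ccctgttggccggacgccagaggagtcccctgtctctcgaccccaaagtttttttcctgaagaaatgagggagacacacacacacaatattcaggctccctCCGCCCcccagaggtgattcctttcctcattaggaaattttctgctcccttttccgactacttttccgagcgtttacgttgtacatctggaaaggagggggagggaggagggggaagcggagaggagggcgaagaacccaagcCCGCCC
Itgb1: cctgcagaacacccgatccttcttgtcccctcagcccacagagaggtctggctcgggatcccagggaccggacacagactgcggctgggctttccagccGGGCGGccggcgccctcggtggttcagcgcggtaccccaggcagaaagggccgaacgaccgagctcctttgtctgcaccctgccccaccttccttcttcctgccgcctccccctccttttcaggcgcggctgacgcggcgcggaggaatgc
Itga11: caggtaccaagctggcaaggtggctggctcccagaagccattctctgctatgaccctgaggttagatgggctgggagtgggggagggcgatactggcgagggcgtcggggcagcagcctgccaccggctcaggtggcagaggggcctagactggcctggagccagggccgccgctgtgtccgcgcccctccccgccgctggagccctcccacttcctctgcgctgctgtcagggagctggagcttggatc
Itga5 had 2 GC boxes in this window, Itgb1 had 1 and Itga11 had 0. Windows of this length were held for 25 of the 40 members, and 8 of the 25 had the GC box in either direction (Itga3, Itga4, Itga5, Itgam, Itgb1, Itgb5, Lama5 and Lamb1), against 32.74% of 32851 windows of all genes. TATAAA was found for Vtn only, against 12.37% of all windows, TGANTCA (the AP-1 site, N being any base) for Itgax only against 6.75%, CCGGAAG (the core bound by ETS factors) for Itga3 only against 6.91%, and CTTTGAT (the TCF/LEF site) for 0 members against 3.21%, each searched on both strands. Sites that overlap another motif were counted for both, and a match is a match of letters and not a measured site.

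The values are log2 levels relative to the 75th percentile of each array, so a level of 0 is a signal that 75% of probes lie below. Between 49.8% and 66.3% of 59305 spots for genes stood well above background on an array. The lowest signal that counted as such was -5.36 to -4.92 on the wild-type LIF arrays and -4.64 to -3.91 on the Nat1-null 2i+LIF arrays. Counts of genes above background in a group therefore depend on this floor as well as on the genes. The gene named in the genotype, Eif4g2, read 4.44 to 4.54 in wild-type LIF, 4.09 to 4.29 in wild-type 2i+LIF, 1.25 to 1.32 in Nat1-null LIF and 1.24 to 1.42 in Nat1-null 2i+LIF, so that the Nat1-null signal was 9.28-fold lower with LIF alone and 7.42-fold lower with 2i added. All 10 embryonic stem cell markers examined, among them Pou5f1, Sox2, Nanog and Esrrb, were well above background on all arrays. Their levels differed between groups. Summed, their log2 level was 9.06 to 9.11 in wild-type LIF and 9.62 to 9.86 across the other 3 groups. With 2i in wild-type cells 6 rose and 2 fell, against 35% and 27.2% of all genes. With loss of Nat1 in LIF 9 rose and 1 fell, against 33.9% and 32.9%. Esrrb had means of 5.04, 7.34, 7.4 and 7.2 in the order of the groups above, and Lin28a of 4.73, 2.38, 3.05 and 2.46. The wild-type LIF arrays made up slide 1, the wild-type 2i+LIF arrays slide 2 and all 6 Nat1-null arrays slide 3, each slide scanned as a unit. Medium in wild-type cells, genotype in either medium and the difference between the medium effects therefore cannot be told apart from slide, and only 2i+LIF against LIF in Nat1-null cells lies within a slide. On slide 3, replicate 3 of Nat1-null LIF shared an array row with the 3 Nat1-null 2i+LIF arrays, and these 4 arrays had the lowest negative-control means, between -16.4 and -10.2 in intensity units. The file headers mark that mean as out of range on these 4 arrays and in range on all others. The comparison of media within slide 3 is therefore unbalanced for this quality mark, which every Nat1-null 2i+LIF array failed.

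In wild-type cells, a set of laminin chains and integrin alpha chains had signals lower by large factors in 2i+LIF than in LIF. Fibronectin, Lamc1, Itga6, Itga5, Itgb5 and Itgb7 were higher by smaller factors. The arrays of each medium lay on a slide of their own, so medium and slide cannot be told apart here. The falls reached 14-fold for Itga3 and 10.9-fold for Itga7, both chains of laminin receptors, while Itgb7, a beta chain best known from lymphocytes, showed a rise of 2.45-fold. Of the 30 members 7 rose and 11 fell at adjusted p below 0.05, against 35% and 27.2% of all genes (62.3% called in either direction). By at least 2-fold, 2 members rose and 8 fell, against 7.18% and 12% of all genes. The median difference of the members was -0.09 and that of all genes 0.06. The smaller rises depended on scaling between arrays, which moves the median of all genes by -0.57 in this comparison when left out. Without it Itgb5 turned to -0.08 and Itga6 (0.14, adjusted p = 0.099) was not called, while Itga5 (0.26), Lamc1 (0.21), Fn1 (0.60) and Itgb7 (0.72) were smaller and still called.

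Nat1-null cells in LIF had lower signals than wild-type cells in LIF for 15 members and higher signals for 10, with 5 not called. The largest rises were those of Itga9 (6.97-fold) and Itgb7 (4.22-fold), and Lama1, Itga6, Lamc1, Itga5 and fibronectin also rose. The falls included Lamb1 (6.06-fold), Itgb1 (2.78-fold) and Itga11, which was above background on only 1 of the 3 Nat1-null LIF arrays (fitted difference -3.80, or -1.90 with a normexp background correction). Among all genes 33.9% rose and 32.9% fell (66.8% called), so the members' calls lie close to that background for rises, and 15 of 30 fell. By at least 2-fold, 4 rose and 10 fell, against 9.89% and 16.1% of all genes. The median was -0.37 for the members and 0.02 for all genes. This comparison and the one above share the 3 wild-type LIF arrays, so a deviation of those arrays enters both.

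In 2i+LIF, 10 members were higher and 10 lower in Nat1-null cells than in wild type, against 21% and 22.6% of all genes (43.6% called). All 4 chains listed as laminin-binding (Itga3, Itga6, Itga7 and Itgb4) were higher, by 1.25- to 4.73-fold, and so were Lama1, Lama5, Lamb2, Lamc1 and Fn1. Itgb1, Itgb3, Itgb7, Itgal, Itgam, Itgb2, Itga4, Itga8, Lama3 and Lamb1 were lower. Of these, Itgb7 (-0.16, adjusted p = 0.065), Itgal (-0.16, adjusted p = 0.21) and Itgam (-0.09, adjusted p = 0.43) were not called without scaling between arrays. By at least 2-fold, 6 were higher and 4 lower, against 3.37% and 7.48% of all genes. The medians were 0.08 for the members and -0.01 for all genes.

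Within the slide of the Nat1-null cells, 7 members rose with 2i+LIF, 6 fell and 17 did not pass, against 21.4% and 15.8% of all genes (37.1% called). Fewer members were called than with 2i in wild-type cells, as were fewer of all genes (62.3% there). Lamb2 rose by 2.19-fold, and Itga9 and Itgb7 fell by 2.27 and 1.17 on the log2 scale. By at least 2-fold, 2 members rose and 2 fell, against 3.7% and 4.3% of all genes. The medians were -0.10 and 0.05. A fit to the 6 Nat1-null arrays alone called 7 higher and 4 lower, Itga5 (adjusted p = 0.078) and Lamc3 (adjusted p = 0.065) being the calls that were lost.

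**Figure D1:**
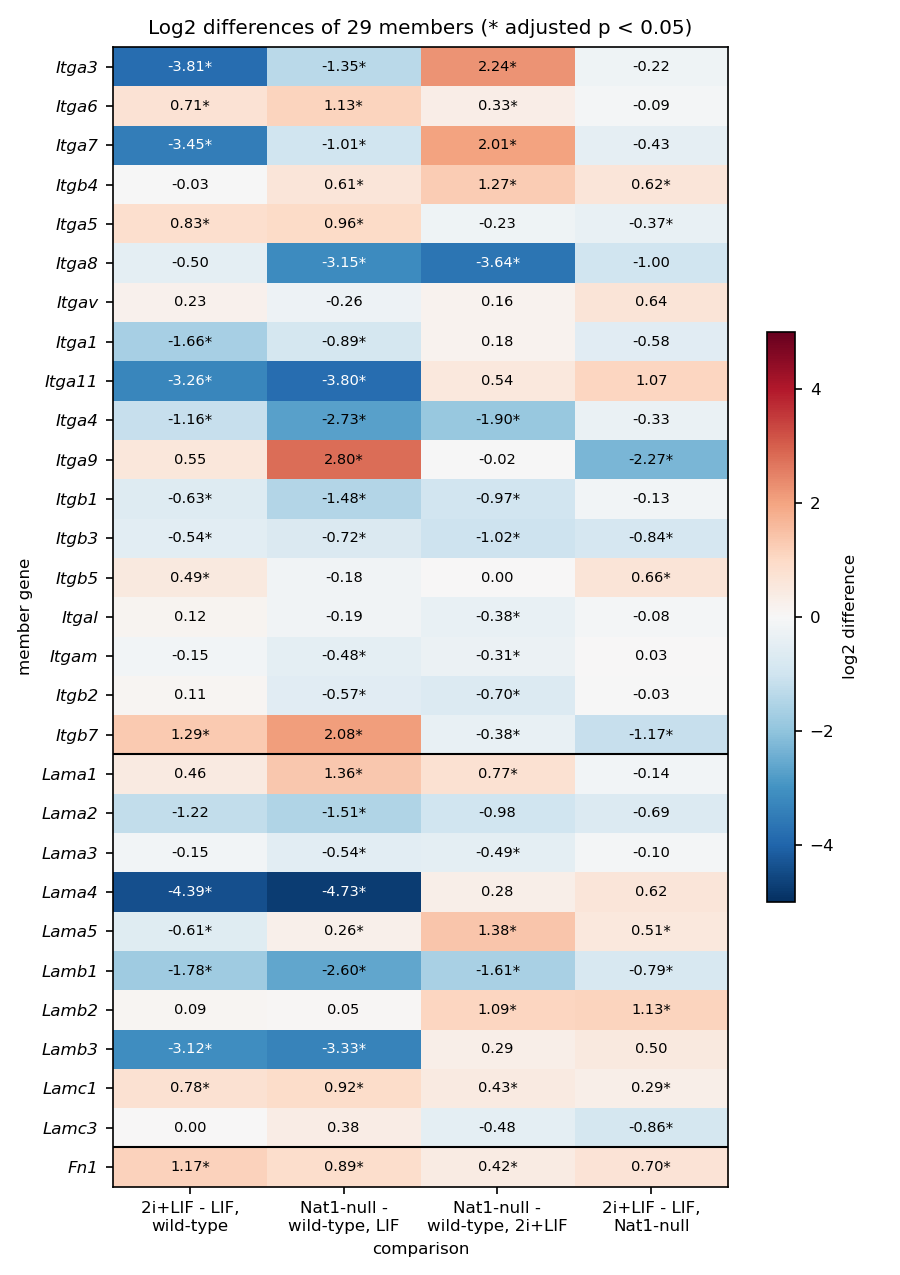
Log2 differences of 29 of the tested members (rows) in the 4 comparisons between groups (columns), coloured from blue (lower in the group named first) to red (higher), with an asterisk where limma's adjusted p was below 0.05. Itga3 and Itga7 were lower in the left-hand column at -3.81 and -3.45 and higher in the third at 2.24 and 2.01, and the fourth column, within a slide, holds the smallest range, from -2.27 to 1.13.

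Markers of other cell types differed between the same groups. Summed over 8 smooth muscle markers, the log2 level was 8.19 to 8.26 in wild-type LIF and 3.52 to 3.95 across the other 3 groups, and Actg2 and Myh11 were well above background in wild-type LIF only. Summed over 13 fibroblast and mesenchymal markers it was 7.02 to 7.16 in wild-type LIF, 5.28 to 5.46 in wild-type 2i+LIF, 4.12 to 4.33 in Nat1-null LIF and 4.48 to 4.71 in Nat1-null 2i+LIF. Of these 13, 12 were well above background on all 3 wild-type LIF arrays (not Lum), against 7, 7 and 6 in the other groups, where Postn and Col6a1 were above background on no array. Summed over 7 trophoblast markers with a probe, the level was 7.46 to 7.65 in wild-type LIF, 4.57 to 4.71 in wild-type 2i+LIF, 3.41 to 3.57 in Nat1-null LIF and 4.88 to 4.99 in Nat1-null 2i+LIF. Each sum is of unlogged signals, so bright genes weigh most, such as Krt18 with a mean of 7.26 in wild-type LIF. Some markers had another order. Eomes had means of -1.45, 0.32, -0.12 and 1.79 in the order of groups above, and Tfap2c of 3.93, 4.38, 2.46 and 4.06. Pdgfrb, a mesenchymal marker, had means of -2.2, -0.15, -2.3 and 0.26. The summed levels were highest in wild-type LIF, as were the levels of 14 of the 30 members (33.2% of all genes). The part of these markers in the members' differences was not tested. In RNA from whole cultures, fewer cells of a type and less RNA per cell cannot be told apart.

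Endoderm markers, which matter here because parietal and primitive endoderm are rich sources of laminin, gave another order. Their summed level was 1.40 to 1.76 in wild-type LIF, 1.31 to 1.43 in wild-type 2i+LIF, 1.56 to 2.46 in Nat1-null LIF and 1.00 to 1.54 in Nat1-null 2i+LIF. Of the 12 markers, 11, 9, 6 and 5 were above background on all 3 arrays of those groups, counts that also depend on the floor of each array. Of 11 tested, 3 rose and 6 fell with 2i in wild-type cells, against 35% and 27.2% of all genes. With loss of Nat1, 2 rose and 5 fell in LIF, against 33.9% and 32.9%, and 2 rose and 5 fell in 2i+LIF, against 21% and 22.6%. With 2i in Nat1-null cells 3 rose and 5 fell, against 21.4% and 15.8%. Gata6 had means of -1.56, -0.36, 1.2 and 0.00 in the order of the groups above and Gata4 of -3.27, -1.78, -1.80 and -0.94. Sox17 (-1.89, -2.61, -3.74 and -3.83), Dab2 (-1.09, -4.03, -4.45 and -6.24), Cubn (-0.63, -2.58, -1.45 and -4.87) and Afp (-1.85, -3.46, -3.53 and -3.36) had their highest means in wild-type LIF. The part of these markers in the laminin values below was not tested.

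Among the laminin alpha chains, Lama1 and Lama5, the chains of the early embryo's basement membranes, were above background on all 12 arrays. Lama1 read 3.58, 3.61 and 3.73 in wild-type LIF, 4.05, 4.08 and 4.15 in wild-type 2i+LIF, 5.07, 4.62 and 5.30 in Nat1-null LIF, and 4.96, 4.45 and 5.17 in Nat1-null 2i+LIF. All 6 Nat1-null arrays lay above all 6 wild-type arrays, and the 2 Nat1-null groups overlapped. Lama1 was thus 2.56-fold higher in Nat1-null cells in LIF (log2 difference 1.36 ± 0.20 SE, adjusted p = 0.00015) and 1.70-fold higher in 2i+LIF (adjusted p = 0.01). The difference of 0.46 between media in wild-type cells missed the threshold (adjusted p = 0.066), although those arrays did not overlap.

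Lama5 took the opposite course in the 2 genotypes when 2i was added. Its levels were 4.04, 4.05 and 4.04 in wild-type LIF, 3.52, 3.33 and 3.46 in wild-type 2i+LIF, 4.33, 4.35 and 4.24 in Nat1-null LIF, and 4.79, 4.64 and 5.01 in Nat1-null 2i+LIF. None of the 4 groups overlapped. It fell by 0.61 on the log2 scale in wild-type cells (adjusted p = 0.00023) and rose by 0.51 in Nat1-null cells (adjusted p = 0.0018), and the difference between these effects was 1.11 ± 0.13 (adjusted p = 6.8e-05). In 2i+LIF, Nat1-null cells had 2.59-fold more signal, while the rise of 0.26 in LIF (adjusted p = 0.026) was not called when any of 5 of the 12 arrays was left out (all 3 wild-type LIF arrays and Nat1-null LIF replicates 1 and 2, adjusted p up to 0.068), after quantile normalization (adjusted p = 0.12), with normexp (adjusted p = 0.072) or without scaling (adjusted p = 0.33).

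Lama4, an alpha chain of vessel and mesenchymal basement membranes, was above background only in wild-type LIF. Its levels there were -2.93, -1.33 and -2.83, and group means elsewhere ran from -7.09 to -6.47, with no array well above background. Against the lowest signal that counts as well above background on each array, the fold that is given as "at least" for such a gene throughout, Lama4 was at least 6.23-fold lower in wild-type 2i+LIF and at least 6.11-fold lower in Nat1-null LIF. The fitted differences of -4.39 and -4.73 depend on how background is removed and became -1.25 and -1.55 with a normexp background correction, still called. These are 2.37-fold and 2.92-fold, below the bounds, so the bounds hold only for the background removal used here.

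The other alpha chains were dim or, on the probe that stood for the gene, moved little. Lama2, the alpha chain of muscle basement membranes, read -3.79, -3.45 and -3.86 in wild-type LIF, was above background on 1, 2 and 0 arrays of the other groups, and was called only in Nat1-null LIF against wild type (-1.51 ± 0.58, adjusted p = 0.04). That call was lost when any of 8 arrays was left out (Nat1-null LIF replicate 2 and the 3 Nat1-null 2i+LIF arrays being the exceptions), and without Nat1-null LIF replicate 3 the difference was -0.98. With normexp it was -0.43. With the mean of its probes, Lama2 differed by -1.73 in that comparison (adjusted p = 0.0019). Lama2 was then also called with 2i in wild-type cells (-1.45, adjusted p = 0.006). The other Lama2 probe was above background in wild-type LIF only. Lama3, a chain of epithelial laminin, stayed between -1.56 and -0.77 and was lower in Nat1-null cells by 0.54 in LIF (adjusted p = 0.0024) and by 0.49 in 2i+LIF (adjusted p = 0.0075). The other Lama3 probe, above background on all 12 arrays, moved more, with group means of -1.07, -1.58, -2.1 and -2.43. With the mean of its probes, Lama3 differed by -0.78 in Nat1-null LIF (adjusted p = 0.00014). Its fall of 0.33 with 2i in wild-type cells was then called too (adjusted p = 0.026).

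Each of the 3 laminin beta chains had a pattern of its own across the groups. Lamb1, the beta chain that usually joins Lama1 or Lama5, had levels of 4.23, 4.27 and 4.34 in wild-type LIF, 2.51, 2.49 and 2.50 in wild-type 2i+LIF, 1.44, 1.96 and 1.65 in Nat1-null LIF, and 0.79, 1.00 and 0.89 in Nat1-null 2i+LIF. The 4 groups were fully separated, in that order. It fell by 3.44-fold with 2i in wild-type cells (-1.78 ± 0.11, adjusted p = 8.3e-07) and by 1.73-fold in Nat1-null cells (-0.79 ± 0.11, adjusted p = 0.00055), and the 2 effects differed by 0.99 (adjusted p = 0.00065). Loss of Nat1 went with a 6.06-fold lower signal in LIF and a 3.04-fold lower signal in 2i+LIF. Lamb1 was thus lower in the Nat1-null groups in which Lama1 and Lamc1, the usual partners in 1 trimer, were higher.

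Lamb2, a beta chain of muscle and kidney basement membranes, stood out in a single group. It read -0.30, -0.19 and -0.21 in wild-type LIF, -0.20, -0.13 and -0.09 in wild-type 2i+LIF, -0.13, -0.09 and -0.33 in Nat1-null LIF, and 0.98, 0.90 and 0.97 in Nat1-null 2i+LIF. The first 3 groups overlapped and the last lay above them all. The rise with 2i was 2.19-fold in Nat1-null cells (adjusted p = 2.5e-06) against 0.09 ± 0.07 on the log2 scale in wild-type cells (adjusted p = 0.26, and -0.47 without scaling between arrays), and the effects differed by 1.04 ± 0.10 (adjusted p = 2e-05). Lamb3, a chain of epithelial laminin, was above background in wild-type LIF only, at -2.22, -2.32 and -2.59, and was at least 6.17-fold lower in wild-type 2i+LIF and at least 6.06-fold lower in Nat1-null LIF (fitted -3.12 and -3.33, and -1.07 and -1.33 with normexp). The normexp differences of Lamb3 are 2.1-fold and 2.52-fold, below those bounds.

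Lamc1, the gamma chain of most laminins, rose in all 4 comparisons. It lay at 4.53 to 4.63 in wild-type LIF, 5.36 to 5.38 in wild-type 2i+LIF, 5.45 to 5.58 in Nat1-null LIF and 5.75 to 5.85 in Nat1-null 2i+LIF, with no overlap between groups. The rise with 2i was 0.78 ± 0.05 in wild-type cells (adjusted p = 1.3e-06) and 0.29 ± 0.05 in Nat1-null cells (adjusted p = 0.0021), the latter 0.10 and not called without scaling between arrays (adjusted p = 0.27). Lamc3 was dim, between -4.95 and -3.47, and fell with 2i in Nat1-null cells (at least 1.39-fold, adjusted p = 0.019), a call lost with normexp (-0.23, adjusted p = 0.075) and on leaving out replicate 1 of either Nat1-null group or replicate 3 of Nat1-null LIF.

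Fibronectin was lowest in wild-type LIF, where the summed mesenchymal markers were highest. Fn1 read 5.79, 5.79 and 5.80 in wild-type LIF, 7.02, 6.86 and 6.99 in wild-type 2i+LIF, 6.55, 6.85 and 6.65 in Nat1-null LIF, and 7.38, 7.36 and 7.41 in Nat1-null 2i+LIF. The groups did not overlap, and Nat1-null 2i+LIF was the highest. Fn1 rose by 2.24-fold with 2i in wild-type cells (1.17 ± 0.08, adjusted p = 1e-06) and by 1.62-fold in Nat1-null cells (0.70 ± 0.08, adjusted p = 9.8e-05), and these effects differed by -0.47 ± 0.11 (adjusted p = 0.0052), a call that scaling decides (-0.09, adjusted p = 0.60 without it). Nat1-null cells had 1.86-fold more Fn1 signal in LIF and 1.34-fold more in 2i+LIF. Vitronectin could not be compared: the Vtn probe, spotted 10 times, was well above background on 0 of the 12 arrays.

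**Figure D2:**
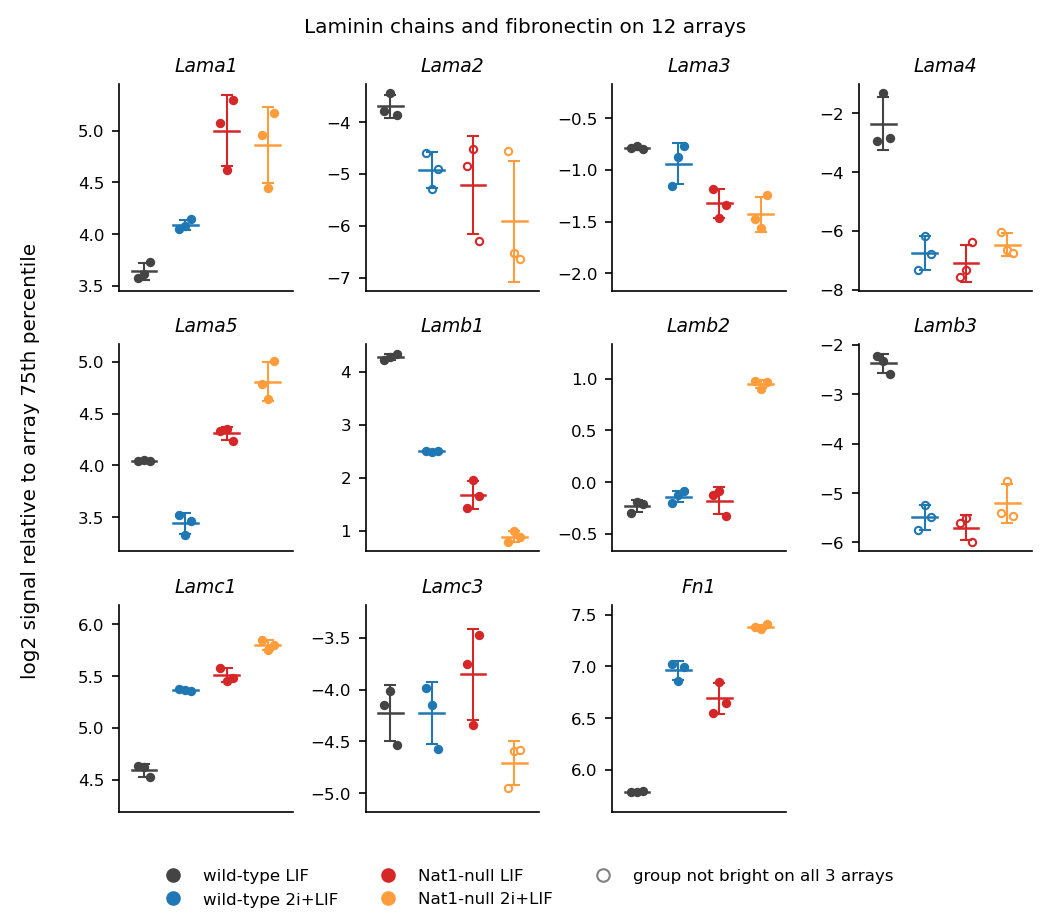
Log2 level relative to the array's 75th percentile (y axis, a separate range for each gene) of 10 laminin chains and Fn1 on 12 arrays, by group from left to right wild-type LIF, wild-type 2i+LIF, Nat1-null LIF and Nat1-null 2i+LIF; points are arrays, lines the mean and SD of 3, and open points a group in which the probe was not well above background on all 3 arrays. Lamb1 steps down from a mean of 4.28 to 0.89 across the groups, Fn1 and Lamc1 are lowest in wild-type LIF, and Lamb2 is raised in Nat1-null 2i+LIF alone at a mean of 0.95.

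Of the laminin receptor chains, Itga6 was higher, and Itga3 and Itga7 lower, in the 2 comparisons with wild-type LIF. Itga6, the alpha chain of the main laminin receptor of these cells, read 4.86, 4.95 and 4.96 in wild-type LIF, 5.60, 5.70 and 5.60 in wild-type 2i+LIF, 6.09, 6.02 and 6.04 in Nat1-null LIF, and 6.07, 5.90 and 5.90 in Nat1-null 2i+LIF. The Nat1-null groups overlapped each other and lay above both wild-type groups. The rises were 1.63-fold with 2i in wild-type cells (adjusted p = 7.1e-06, but 1.10-fold and adjusted p = 0.099 without scaling between arrays), 2.18-fold with loss of Nat1 in LIF (adjusted p = 1.7e-07) and 1.25-fold in 2i+LIF (adjusted p = 0.0021). Itgb4, which pairs with Itga6 in the hemidesmosomes of epithelia, lay at -0.16, -0.16 and -0.31 in wild-type LIF, -0.12, -0.32 and -0.29 in wild-type 2i+LIF, 0.25, 0.48 and 0.49 in Nat1-null LIF, and 1.11, 0.85 and 1.12 in Nat1-null 2i+LIF. The wild-type groups overlapped and both Nat1-null groups stood above them, by 1.53-fold in LIF and 2.41-fold in 2i+LIF.

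Itga3, a laminin receptor chain common in epithelia, had its lowest values in wild-type 2i+LIF and not in the Nat1-null cells. Its levels were 0.97, 1.01 and 1.02 in wild-type LIF, -2.69, -3.06 and -2.68 in wild-type 2i+LIF, -0.13, -0.54 and -0.37 in Nat1-null LIF, and -0.57, -0.70 and -0.45 in Nat1-null 2i+LIF. Only the 2 Nat1-null groups overlapped. The difference between media was -3.81 ± 0.13 in wild-type cells (14-fold lower in 2i+LIF, adjusted p = 1.6e-08) and -0.22 ± 0.13 in Nat1-null cells (adjusted p = 0.20), a difference of 3.59 ± 0.18 (adjusted p = 3.5e-07). In 2i+LIF the signal was 4.73-fold higher in Nat1-null cells than in wild type.

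Itga7, the laminin receptor chain of muscle, followed the same order. It read 0.93, 0.73 and 0.83 in wild-type LIF, -2.45, -2.58 and -2.82 in wild-type 2i+LIF, 0.01, -0.64 and 0.10 in Nat1-null LIF, and -0.75, -0.76 and -0.33 in Nat1-null 2i+LIF. The wild-type 2i+LIF arrays were the lowest by a wide margin, and the Nat1-null groups overlapped. The medium effects were -3.45 ± 0.20 in wild-type cells (adjusted p = 3.9e-07) and -0.43 ± 0.20 in Nat1-null cells (adjusted p = 0.11), and they differed by 3.01 ± 0.28 (adjusted p = 1.6e-05). Both Itga3 and Itga7 were well above background on all 12 arrays, and with normexp their falls in wild-type cells were -3.10 and -2.78.

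The fibronectin receptor chains Itga5 and Itgb1 went in opposite directions in the 2 comparisons with wild-type LIF. Itga5 read -0.21, -0.21 and -0.30 in wild-type LIF, 0.69, 0.53 and 0.53 in wild-type 2i+LIF, 0.88, 0.71 and 0.56 in Nat1-null LIF, and 0.42, 0.21 and 0.42 in Nat1-null 2i+LIF. Wild-type LIF was the lowest group and the other 3 lay within 0.21 to 0.88. It rose by 1.77-fold with 2i in wild-type cells (adjusted p = 3.5e-05) and by 1.94-fold with loss of Nat1 in LIF (adjusted p = 8.8e-06). It fell by 0.37 with 2i in Nat1-null cells (adjusted p = 0.012), which became -0.21 (adjusted p = 0.18) when the 2 Nat1-null LIF arrays of the other array row were left out. The 2 medium effects differed by -1.19 ± 0.13 (adjusted p = 5.4e-05).

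Itgb1 is the beta chain shared by the laminin, fibronectin and collagen receptors. Its levels were 2.87, 2.86 and 2.92 in wild-type LIF, 2.29, 2.24 and 2.23 in wild-type 2i+LIF, 1.46, 1.49 and 1.27 in Nat1-null LIF, and 1.17, 1.44 and 1.23 in Nat1-null 2i+LIF. Both Nat1-null groups lay below both wild-type groups and overlapped each other. The signal was 2.78-fold lower in Nat1-null cells in LIF (-1.48 ± 0.08, adjusted p = 1.6e-07), 1.96-fold lower in 2i+LIF (adjusted p = 1.2e-05) and 1.55-fold lower with 2i in wild-type cells (adjusted p = 9.1e-05). The other Itgb1 probe gave the same directions, with group means of 0.68, -0.07, -1.0 and -0.96. Itga6 and Itgb1, partners in 1 receptor, had differences of 1.13 and -1.48 in Nat1-null cells in LIF, and of 0.71 and -0.63 with 2i in wild-type cells.

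The other chains that bind RGD ligands showed smaller or dimmer changes. Itgb3, which pairs with Itgav in the vitronectin receptor, read -0.46, -0.49 and -0.52 in wild-type LIF, -0.99, -1.08 and -1.01 in wild-type 2i+LIF, -1.15, -1.32 and -1.15 in Nat1-null LIF, and -2.19, -2.03 and -1.93 in Nat1-null 2i+LIF. It fell in all 4 comparisons, by 1.45-fold to 2.03-fold, and the groups did not overlap. Itgav, the alpha chain of several RGD receptors, lay between -1.15 and 0.05 and was called in 0 of the comparisons, the nearest being 0.64 ± 0.24 with 2i in Nat1-null cells (adjusted p = 0.058), which passed in 6 other settings. Itgb5, another partner of Itgav, lay at 2.57 to 2.65, 3.05 to 3.14, 2.39 to 2.50 and 2.93 to 3.27 in the 4 groups and rose by 1.58-fold with 2i in Nat1-null cells (adjusted p = 0.00019).

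Itga8, an RGD-binding chain of mesenchyme and muscle, was above background in both wild-type groups, at -1.86, -2.06 and -1.80 in LIF and -2.36, -2.35 and -2.51 in 2i+LIF. The Nat1-null LIF arrays gave -5.81, -3.03 and -6.31, with replicate 2 the only one above background, and no Nat1-null 2i+LIF array was above background. Itga8 was lower in Nat1-null cells in both media, by at least 3.84-fold in 2i+LIF (adjusted p = 0.0019) and by 3.15 on the log2 scale in LIF (adjusted p = 0.0023). Without Nat1-null LIF replicate 2 the latter difference was -4.16, without replicate 3 it was -2.51, and with normexp it was -1.50. In 2i+LIF the normexp difference was -1.56, which is 2.95-fold and below the bound.

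Collagen-binding alpha chains were above background mainly in wild-type LIF. Itga11, a fibrillar collagen receptor of fibroblasts, read -1.74, -1.70 and -1.57 there, -5.01, -4.83 and -4.96 in wild-type 2i+LIF, -5.47, -4.47 and -6.47 in Nat1-null LIF, and -4.78, -3.90 and -4.51 in Nat1-null 2i+LIF. All wild-type LIF arrays lay above all others, on which it was above background on 2, 1 and 2 of 3 arrays. It fell by 3.26 with 2i in wild-type cells (adjusted p = 7.7e-05) and by 3.80 with loss of Nat1 in LIF (adjusted p = 2e-05), the fitted values being -1.58 and -1.90 with normexp. Itga1, a collagen receptor of smooth muscle and fibroblasts, lay at -4.00, -3.76 and -3.67 in wild-type LIF and was at least 2.24-fold lower in wild-type 2i+LIF (adjusted p = 0.0011). With normexp that difference was -0.25, which is 1.19-fold and below the bound. Its difference of -0.89 in Nat1-null LIF (adjusted p = 0.028) was lost on leaving out any of 5 arrays (wild-type LIF 2 or 3, or any Nat1-null LIF array) and with quantile normalization (adjusted p = 0.23). The summed levels of the fibroblast and smooth muscle markers above were also highest in wild-type LIF, and the part of these markers in the Itga1 and Itga11 differences was not tested.

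Itga4 and Itga9, a related pair of alpha chains that bind alternatively spliced fibronectin and VCAM1, behaved differently. Itga9 read -0.35, -0.89 and -1.01 in wild-type LIF, -0.37, -0.07 and -0.16 in wild-type 2i+LIF, 2.31, 1.55 and 2.31 in Nat1-null LIF, and -0.03, -0.70 and 0.07 in Nat1-null 2i+LIF. The 3 Nat1-null LIF arrays stood above the 9 others, which overlapped. It was 6.97-fold higher in Nat1-null cells than in wild type in LIF (adjusted p = 8.3e-06), while in 2i+LIF the difference was -0.02 ± 0.27 (adjusted p = 0.96). With 2i it fell by 2.27 in Nat1-null cells (adjusted p = 0.00016), within a slide, against 0.55 ± 0.27 in wild-type cells (adjusted p = 0.10), and the effects differed by -2.82 ± 0.38 (adjusted p = 2e-04).

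Itga4, on the brighter of its 2 probes, was dim throughout, at -3.36, -3.58 and -3.37 in wild-type LIF, -4.44, -4.82 and -4.55 in wild-type 2i+LIF, and above background on no Nat1-null array. The other Itga4 probe was above background on 1 array only, Nat1-null 2i+LIF replicate 3 (-3.43). The values that follow are those of the brighter Itga4 probe. It was at least 2.90-fold lower in Nat1-null LIF than in wild-type LIF (adjusted p = 1.1e-06). With normexp that difference was -0.75, which is 1.68-fold and below the bound. With 2i in wild-type cells, where 2 of 3 arrays were above background, the difference was -1.16 (adjusted p = 0.00059), or -0.26 with normexp.

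Of the integrin chains best known from leukocytes, Itgb7 changed most. Its levels were 0.32, 0.34 and 0.32 in wild-type LIF, 1.53, 1.66 and 1.66 in wild-type 2i+LIF, 2.55, 2.28 and 2.38 in Nat1-null LIF, and 1.26, 1.12 and 1.33 in Nat1-null 2i+LIF. No groups overlapped, and Nat1-null LIF was the highest, as for Itga9. It rose with 2i by 2.45-fold in wild-type cells (1.29 ± 0.08, adjusted p = 6.3e-07) and fell by 2.24-fold in Nat1-null cells (-1.17 ± 0.08, adjusted p = 4.7e-06), effects that differed by -2.46 ± 0.11 (adjusted p = 2.1e-07). Itga4 is an alpha chain that joins Itgb7, though not the only such chain. The Itga4 probe that stood for the gene was above background on no Nat1-null array, and the other Itga4 probe on 1. The other 3 tested chains of this kind were lower in Nat1-null cells in 2i+LIF: Itgal by 0.38, Itgam by 0.31 and Itgb2 by 0.70 on the log2 scale. Without scaling between arrays, Itgal (-0.16, adjusted p = 0.21) and Itgam (-0.09, adjusted p = 0.43) were not called. A dimmer Itgal probe gave group means of -3.09, -3.09, -3.85 and -4.47. With the mean of its probes, Itgal differed between genotypes by -0.88 in 2i+LIF (adjusted p = 5.5e-05) and by -0.47 in LIF (adjusted p = 0.0013). In LIF, Itgb2 was lower by 0.57 (adjusted p = 0.013), which quantile normalization (adjusted p = 0.074) and leaving out Nat1-null LIF replicate 3 (adjusted p = 0.05) took to the threshold or past it. Itgam rests on the brightest of 3 probes, whose group means were 4.08, 3.94, 3.6 and 3.63, whereas the dimmer probes gave -3.13, -3.15, -3.07 and -3.11, and -2.96, -4.35, -4.22 and -4.17. With the mean of its probes, Itgam differed by -0.03 between genotypes in 2i+LIF (adjusted p = 0.86).

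Leukocyte markers were split: of 9 with a probe, Ptprc, Cd53, Cd79a and Tyrobp were above background on at most 1 array of any group, Cd52 on 3, 1, 2 and 2 arrays of the 4 groups, and Laptm5, Csf1r, Cd3e and Fcer1g on all 12. The summed level of the 9 was 1.86 to 1.95 in wild-type LIF, 2.25 to 2.40 in wild-type 2i+LIF, 2.67 to 2.78 in Nat1-null LIF and 2.39 to 2.58 in Nat1-null 2i+LIF, which is the order of the groups for Itgb7 apart from the middle pair. Of 6 platelet markers, where Itga2b and Itgb3 form the fibrinogen receptor, Pf4, Gp9, Gp1ba and Ppbp were above background on no array, and the summed level was -1.70 to -1.41, -1.26 to -1.0, -0.86 to -0.67 and -0.94 to -0.90 in the 4 groups. The part of these genes in the members' values was not tested.

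**Figure D3:**
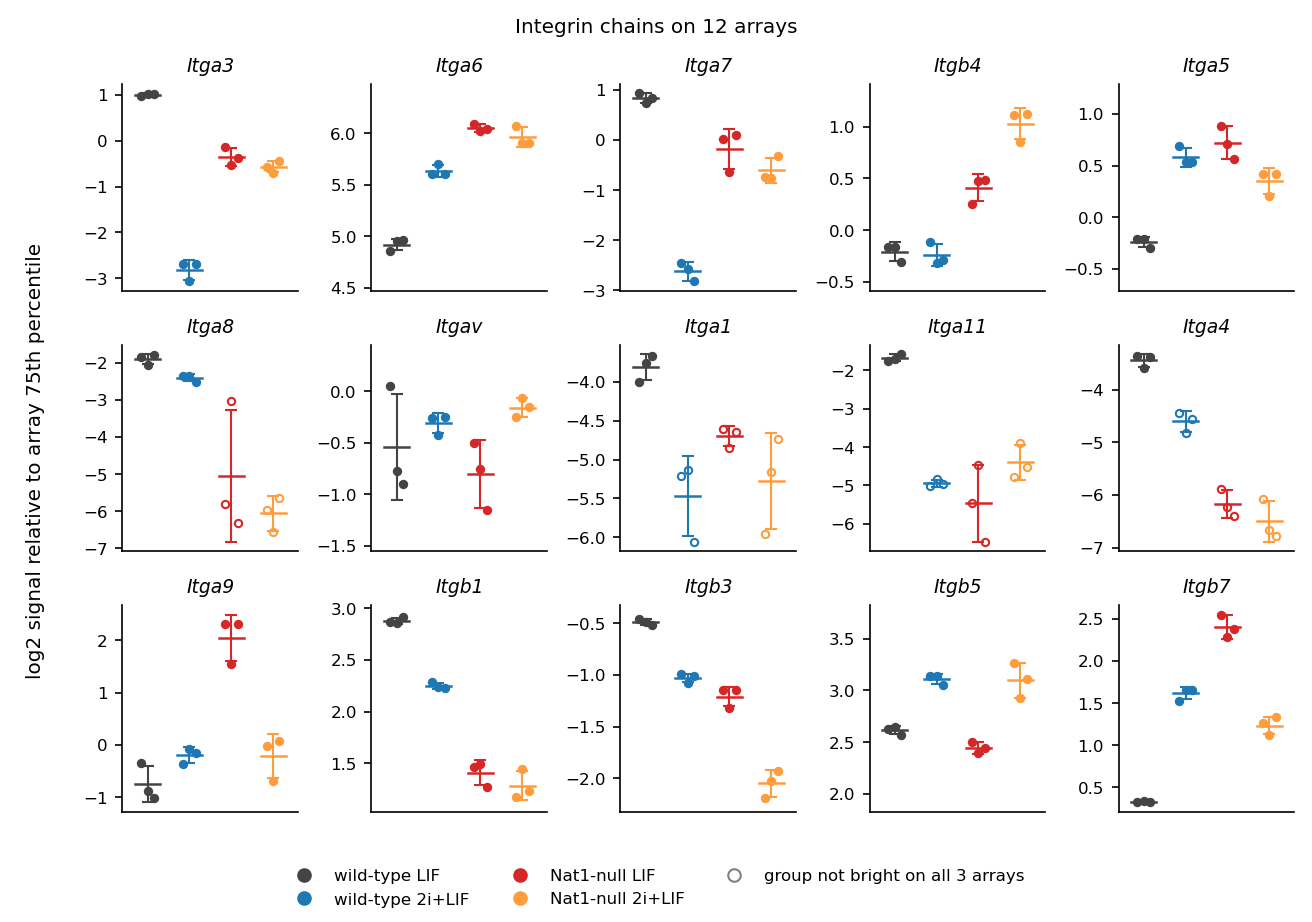
Log2 level relative to the array's 75th percentile (y axis, a separate range for each gene) of 15 integrin chains on 12 arrays, by group from left to right wild-type LIF, wild-type 2i+LIF, Nat1-null LIF and Nat1-null 2i+LIF; points are arrays, lines the mean and SD of 3, and open points a group in which the probe was not well above background on all 3 arrays. Itga3 and Itga7 are lowest in wild-type 2i+LIF (means -2.81 and -2.62) and Itga9 and Itgb7 highest in Nat1-null LIF (2.05 and 2.40). Over the first 3 groups Itgb1 steps down as Itga6 steps up, and for both genes the Nat1-null groups overlap.

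The medium effect itself was compared between genotypes for all 30 members, as the effect in Nat1-null cells minus that in wild-type cells. It differed for 19 of them, 12 with a positive and 7 with a negative difference, against 23.6% and 26.2% of all genes (49.7% called). By at least 2-fold, 7 differences were positive and 3 negative, against 11.8% and 8.51% of all genes. The medians were 0.29 for the members and -0.03 for all genes. Lama5, Itgb7 and Itga5 changed in opposite directions, each with both effects called. Lamb1, Itgb3, Fn1 and Lamc1 moved in the same direction in both genotypes by different amounts, though without scaling between arrays the differences of effects were not called for Lamc1 (-0.11, adjusted p = 0.35), Fn1 (-0.09) and Itgb3 (0.07). For Itga3, Itga7 and Itgb1 the fall was called in wild-type cells and not in Nat1-null cells, as was the rise of Itga6. For Lamb2, Itgb4 and Itga9 the change was called in Nat1-null cells and not in wild-type cells. Without scaling, the falls of Itga3 (-0.42), Itga7 (-0.63), Itgb1 (-0.32) and Itga6 (-0.28) in Nat1-null cells were called too, as were those of Lamb2 (-0.47) and Itgb4 (-0.60) in wild-type cells. The differences of 5.01 for Lama4, 3.62 for Lamb3 and 4.33 for Itga11 come from genes at or near background in 3 of the 4 groups, and were 1.40, 1.28 and 2.07 with normexp. Calls for Itga4 (0.83, lost on leaving out any of 6 arrays) and Itgb3 (-0.30, lost on leaving out any of 8) were close to the threshold.

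**Figure D4:**
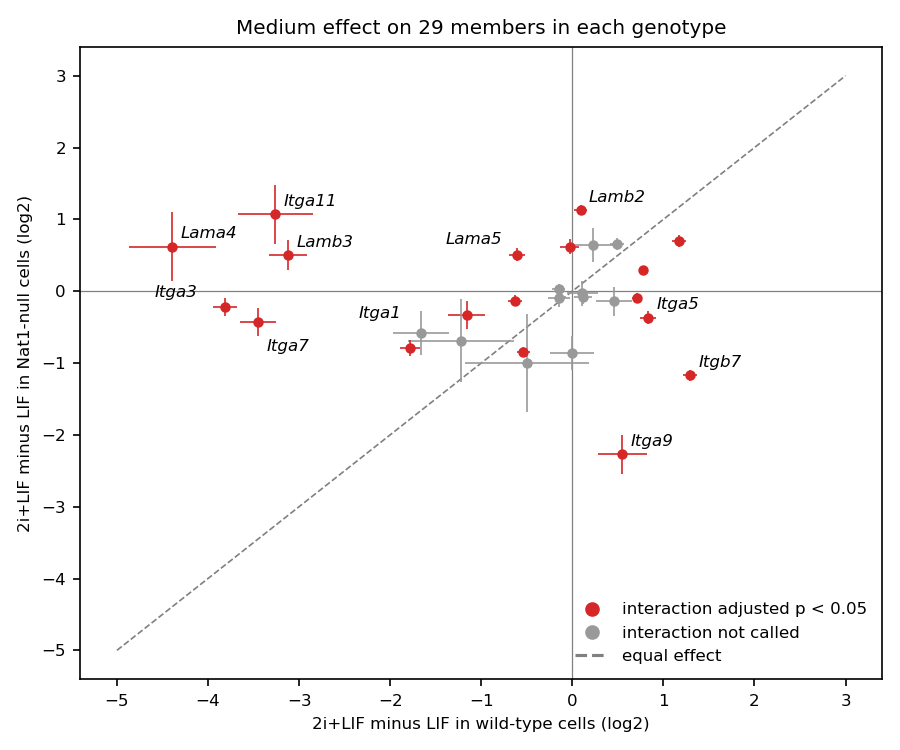
Difference of 2i+LIF minus LIF on the log2 scale in wild-type cells (x axis) against that in Nat1-null cells (y axis) for 29 of the tested members; bars are standard errors, red points members whose 2 effects differed at adjusted p below 0.05, the dashed line equal effects, and names are given where the effects differed by at least 1. Itga3 and Itga7 lie far to the left near 0 on the y axis, and Itgb7 lies at 1.29 and -1.17.

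Genes that work beside these receptors and ligands were taken from 3 lists. A fold given as "at least" for them is a bound under the background removal used here only, and was not compared with normexp. Of 33 tested genes of focal adhesions and integrin signalling, 7 rose and 18 fell with 2i in wild-type cells (median -0.36), against 35% and 27.2% of all genes (median 0.06). With loss of Nat1, 14 rose and 13 fell in LIF (median 0.00), against 33.9% and 32.9% (median 0.02), and 17 rose and 5 fell in 2i+LIF (median 0.30), against 21% and 22.6% (median -0.01). With 2i in Nat1-null cells 6 rose and 8 fell (median -0.01), against 21.4% and 15.8% (median 0.05). Zyx, which encodes the focal adhesion protein zyxin, was 11.1-fold lower with 2i in wild-type cells and 22.2-fold lower in Nat1-null LIF, and rose by 3.58-fold with 2i in Nat1-null cells. Flnc, a muscle filamin that crosslinks actin, was 16.3-fold and 29.4-fold lower in the first 2 of these comparisons. Nedd9, a docking protein of integrin signalling, was at least 4.63-fold and at least 4.54-fold lower. Parva, which links integrin-linked kinase to actin, was 3.61-fold and 10.1-fold lower, and rose by 2.88-fold with 2i in Nat1-null cells. In those cells Fermt3, the kindlin of blood cells, rose by 5.13-fold from a mean of -4.96, close to background, and Lims2, a PINCH adaptor, fell by 2.53 on the log2 scale.

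Among 15 tested partners of laminin in basement membranes, 3 rose and 10 fell with 2i in wild-type cells (median -0.82; 35% and 27.2% of all genes, median 0.06). With loss of Nat1, 3 rose and 8 fell in LIF (median -0.41; 33.9% and 32.9% of all genes, median 0.02) and 9 rose and 3 fell in 2i+LIF (median 0.27; 21% and 22.6%, median -0.01). With 2i in Nat1-null cells 7 rose and 3 fell (median 0.24; 21.4% and 15.8%, median 0.05). Nid1, encoding nidogen, which bridges laminin and collagen IV, was 3.29-fold higher in Nat1-null LIF than in wild-type LIF. Col4a1 and Col4a2, the main collagen IV chains, fell by 2.23 and 1.74 with 2i in Nat1-null cells, within a slide. Bcam, a receptor for Lama5, fell by 1.71 with 2i in wild-type cells and rose by 1.15 in Nat1-null cells, the same pair of signs as Lama5 itself (-0.61 and 0.51). Fras1, a basement membrane protein of epithelia, was at least 5.14-fold lower in wild-type 2i+LIF and at least 5.05-fold lower in Nat1-null LIF.

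Of 14 other tested genes for secreted or surface ligands of integrins, 5 rose and 7 fell with 2i in wild-type cells (median -0.69), where 35% of all genes rose and 27.2% fell (median 0.06). With loss of Nat1, 4 rose and 7 fell in LIF (median -0.72), where 33.9% and 32.9% of all genes did (median 0.02), and 1 rose and 4 fell in 2i+LIF (median 0.27), where 21% and 22.6% did (median -0.01). With 2i in Nat1-null cells 1 rose and 3 fell (median 0.24), where 21.4% and 15.8% did (median 0.05). Thbs1, encoding thrombospondin, a matrix protein of stromal cells and platelets, was at least 198-fold lower in wild-type 2i+LIF and at least 194-fold lower in Nat1-null LIF than in wild-type LIF. These bounds depend on the background removal and were not compared with normexp. Edil3, an RGD protein of vessels, was higher with 2i in wild-type cells (adjusted p = 0.00019), with no fold given because its mean of -5.90 in wild-type LIF lay below the lowest signal that counted as above background there, and was at least 2.64-fold lower in Nat1-null cells than in wild type in 2i+LIF. Vcam1, a ligand of Itga4 and Itga9, was at least 1.82-fold and at least 1.79-fold lower in wild-type 2i+LIF and in Nat1-null LIF. Fbn1, encoding the RGD protein fibrillin, was 5.68-fold lower in Nat1-null LIF and 3.17-fold lower in Nat1-null 2i+LIF than in the wild-type cells of the same medium.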

How the data were processed

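RNA levels were measured on 12 single-colour (Cy3) Agilent arrays. Per the file headers, the deposited intensity values (processed signal) came from Agilent Feature Extraction, whose settings subtract background and detrend each array but do not scale arrays to each other. The deposited series table holds the authors' log2 values; its columns correlated at 1.0 with the values computed here, so its direction and scale are known, with each column's median between -3.86 and -3.58 and the 75th percentile at about 0. Its processing steps are not given in the sources used here.

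From the processed signal, control spots and outlier spots were removed, spots of a probe averaged, and each array's 75th percentile of the log2 values subtracted. Probes were named by RefSeq accession (27656 of 55681 probes; annotation GRCm38.p6). Of 54229 probes with values on all arrays, 33284 passed the filter (well above background on every array of some group); the brightest stood for its gene (24456 genes, 15421 with a symbol). limma 3.58.1 in R 4.3.3 fitted 4 group means and 5 contrasts, with two-sided tests, p-values adjusted over all genes by Benjamini-Hochberg and calls at adjusted p below 0.05; it was tested on simulated data. A value on every array is given for members called at 2-fold or more in some contrast, the others by range; from each list up to 4 called genes with the largest difference could be named. A fold given as "at least" sets the brighter group's mean against the lowest signal well above background in the dimmer group. It is a bound under the background removal used here only. With normexp the folds of Lama4, Lamb3, Lamc3, Itga1, Itga4 and Itga8 lay below it. The values of 1 gene are not reported here; it stays in the fits and counts. Members and gene lists were chosen with earlier results of these data known. Alternatives covered scaling, quantile normalization, normexp background correction (median signals, offset 50), dim-probe filters, probe averaging, the series table, array weights, a replicate block and leaving out arrays. Figures were drawn with matplotlib 3.10.9 in Python 3.11.15, from tables read with pandas 2.3.3 and numpy 2.4.6. The number of arrays limits the precision.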

Additional observations from a re-analysis of the deposited data

Results flagged for a closer look

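For the 18 members below the effect of 2i differed between the genotypes by limma's test of that difference (Nat1-null effect minus wild-type effect, log2). Measured on all 12 arrays were Itga3 (3.59), Itga7 (3.01), Itga9 (-2.82), Itgb7 (-2.46), Itga5 (-1.19), Lama5 (1.11), Lamb2 (1.04), Lamb1 (0.99), Itga6 (-0.80), Itgb4 (0.66), Itgb1 (0.50), Lamc1 (-0.48), Fn1 (-0.47) and Itgb3 (-0.30). Without scaling between arrays the last 3 of these (Lamc1, Fn1 and Itgb3) were not called. Lama4 (5.01), Itga11 (4.33), Lamb3 (3.62) and Itga4 (0.83) were near background in at least 2 groups, so their values depend on background removal. The wild-type effect runs between slides and the Nat1-null effect within a slide, so these differences cannot be told apart from slide.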

How the results depend on the processing

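With the authors' series table, all 145 differences of 29 members in 5 contrasts kept their direction and their side of the threshold. Without scaling between arrays, the median of all genes moved by -0.57 for 2i in wild-type cells, -0.15 and 0.22 for genotype in LIF and in 2i+LIF, -0.19 for 2i in Nat1-null cells and 0.37 for the difference of effects. The share of higher genes among those called then went from 56.3% to 12.8%, 50.7% to 39.3%, 48.1% to 75.9%, 57.5% to 22.2% and 47.4% to 78.5%. Quantile normalization took the fourth to 46.8%. Of these 145 differences, 8 lost and 15 gained a call without scaling, and 5 turned: in wild-type cells Itgal (-0.45), Itgb2 (-0.46), Itgb5 (-0.08) and Lamb2 (-0.47), and, for the difference of effects, Itgb3 (0.07). Without scaling, 4 members rose and 18 fell with 2i in wild-type cells (7 and 11 with it), 11 fell with 2i in Nat1-null cells (6 with it), and 4 had a negative difference of effects (7 with it). Among all 24456 genes, 17480 were then called for 2i in wild-type cells, 12.8% of them higher. For 2i in Nat1-null cells 8623 were called, 22.2% of them higher, and for the difference of effects 13078, 78.5% of them positive. Kept to probes bright on all 12 arrays, 6 fell with 2i in wild-type cells and 8 with loss of Nat1 in LIF (11 and 15 otherwise). That filter leaves fewer genes, with 105 of the 145 differences, and the share of all genes was not counted under it. Requiring 2-fold as well gave 2 rises in wild-type cells with 2i, 4 rises in Nat1-null LIF, 6 rises and 4 falls in Nat1-null 2i+LIF, 2 rises and 2 falls with 2i in Nat1-null cells, and 7 positive and 3 negative differences of effects. Leaving out each array in turn, rises and falls ranged over 6 to 8 and 11 to 13 (2i in wild-type cells), 9 to 10 and 12 to 16 (genotype in LIF), 10 to 10 and 10 to 11 (genotype in 2i+LIF), 7 to 8 and 5 to 7 (2i in Nat1-null cells), and 10 to 13 and 6 to 9 (difference of effects).

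Among the 145, quantile normalization lost 5 calls and gained 7, normexp lost 4 and gained 9, no filter lost 3, and averaging probes lost 1 and gained 7, with 0 turned. Normexp moved 23 of 90 called folds by over 1.5 times, all of them towards 0. Leaving out the Nat1-null LIF arrays of the other array row, chosen after seeing the data, leaves 1 array in that group, assumed to vary like the others; 3 calls were lost and 7 gained. The 1.5-fold moves there included Itga11 (difference of effects 5.33) and Lama2 (-2.58 in Nat1-null LIF). Replicate numbers did not pair the arrays: residuals correlated above 0.1 in 1 of 18 same-number pairs and 2 of 12 arrays correlated best with their own number. With the replicate number as a block the counts in the same order were 7 and 11, 10 and 15, 10 and 11, 9 and 6, and 12 and 8, with 0 calls lost and 5 gained among the 145. Slide could not be fitted as a block where each group lies on a slide of its own. Signal over background limits Lama2, Lama4, Lamb3, Lamc3, Itga1, Itga4, Itga8 and Itga11.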
